A study of Drosophila melanogaster with 3 samples.

Results

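The 9 genes described here, per, tim, Clk, cyc, vri, Pdp1, cwo, cry and cbt, form the core of the circadian clock of Drosophila melanogaster and its closest branches, out of 13968 protein-coding genes in the annotation. They were chosen by name, and every peak summit inside each gene or within 5000 bp of any of its transcription start sites (TSSs) was taken. The peaks come from chromatin immunoprecipitation and sequencing (ChIP-seq) with an anti-GFP antibody in whole white prepupae of mixed sex and unstated age, from a stable transgenic line (strain topi-GFP) whose topi protein carries eGFP at its C terminus. Topi is a zinc-finger protein of a complex that turns on spermatocyte genes in the testis, and whole animals mix that tissue with all others, including the brain. There are 3 libraries, biological replicates 1 to 3 of this 1 group, each from its own biosample of the same fly line. No library from untagged animals was analysed here, so topi binding and peaks that any anti-GFP precipitate would give cannot be told apart.

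The fly clock is a loop of transcription and repression. CLK and CYC bind as a pair to E-boxes and switch on per, tim, vri, Pdp1 and cwo, and PER and TIM then return to the nucleus and shut CLK and CYC off. VRI and PDP1 form a further loop in which VRI represses and PDP1 activates Clk. CWO competes with CLK and CYC at E-boxes, CRY is a blue-light receptor that leads to the breakdown of TIM, and CBT is a zinc-finger factor under clock control. Several of these genes also act outside the clock, vri and cbt in the embryo and Pdp1 in muscle.

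The anti-GFP peaks were spread very unevenly over the clock genes. The genes of the further loop and the output branch, vri, Pdp1 and cbt, held 14, 9 and 4 summits of the IDR set, the peaks the authors kept by their irreproducible discovery rate across replicates. Among the regulators at the centre of the loop, per, tim and Clk held none and cyc held 2. Of protein-coding genes with a window of similar length, 52.3% for per, 34.4% for tim and 34.8% for Clk also held none. The shares with as many summits or more were 0.196% for vri, 12.7% for Pdp1 and 3.12% for cbt. No difference between these roles in the clock was tested. The cry promoter had 1 IDR summit, the only one of cwo lay in its first intron, and the 2 in the cyc window lay at the promoters of neighbouring genes. Of the 9 in the Pdp1 window, 2 lay outside that gene, at the TSS of CG32365 or in its intron. All 4 in the cbt window lay in an intron of ush. In all there were 31 IDR summits and 40 further summits of the relaxed list of pooled replicates. That list holds 30000 peaks, of which the 8424 IDR peaks are a part, and by its label includes background. Of the 31, 17 were left among IDR peaks that both replicates 1 and 3 held in their strongest 8424, which leaves out replicate 2. Signal is the authors' own score for a peak against a control and is not scaled between libraries, and rank is the order of signals within a list, 1 being the strongest. Median signal was 11 in the list of replicate 1, against 22.3 and 22.5 in replicates 2 and 3. Peak lists give no read counts, so depth is unknown.

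The DNA under the summits that carry the pattern is shown here, 100 bp on each side of a summit, from RefSeq's copy of the dm6 genome. The 3 cbt windows and the vri window at its strongest summit hold the strongest signals of the set or the E-box nearest to a summit, and the others are the strongest summit, or a promoter summit, of their gene. Each is written 5′ to 3′ on the strand of the clock gene, and capitals mark any of 8 short motifs (an E-box CACGTG, or GAGAG and its complement CTCTC, in these windows).
cbt, strongest summit, chr2L:480958-481158, minus strand: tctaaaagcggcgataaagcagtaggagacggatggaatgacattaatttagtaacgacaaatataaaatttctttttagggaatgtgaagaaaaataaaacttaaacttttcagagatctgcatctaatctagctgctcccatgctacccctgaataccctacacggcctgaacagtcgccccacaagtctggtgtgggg
cbt, promoter summit, chr2L:479972-480172, minus strand: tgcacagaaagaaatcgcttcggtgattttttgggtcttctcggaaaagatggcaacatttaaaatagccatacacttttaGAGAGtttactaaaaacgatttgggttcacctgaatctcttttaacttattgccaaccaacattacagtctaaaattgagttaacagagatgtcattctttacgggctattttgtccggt
cbt, far upstream summit with an E-box, chr2L:481818-482018, minus strand: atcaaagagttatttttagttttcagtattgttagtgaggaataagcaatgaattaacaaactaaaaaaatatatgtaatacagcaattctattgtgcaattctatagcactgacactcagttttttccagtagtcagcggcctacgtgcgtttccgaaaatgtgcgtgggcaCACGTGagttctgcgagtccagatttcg
vri, strongest summit, chr2L:5292649-5292849, plus strand: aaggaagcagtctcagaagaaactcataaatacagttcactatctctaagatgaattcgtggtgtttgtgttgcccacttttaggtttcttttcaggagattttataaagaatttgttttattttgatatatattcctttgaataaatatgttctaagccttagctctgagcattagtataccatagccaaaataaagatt
vri, summit at the promoter P2, chr2L:5299358-5299558, plus strand: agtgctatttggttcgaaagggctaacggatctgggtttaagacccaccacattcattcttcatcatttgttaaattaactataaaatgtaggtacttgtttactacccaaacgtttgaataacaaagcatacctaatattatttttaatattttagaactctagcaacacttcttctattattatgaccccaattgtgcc
Pdp1, strongest summit, chr3L:7863808-7864008, minus strand: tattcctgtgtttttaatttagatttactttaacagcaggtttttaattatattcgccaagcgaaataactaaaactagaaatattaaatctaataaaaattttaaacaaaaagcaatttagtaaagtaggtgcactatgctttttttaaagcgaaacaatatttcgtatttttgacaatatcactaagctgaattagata
cwo, only summit, chr3R:10390959-10391159, plus strand: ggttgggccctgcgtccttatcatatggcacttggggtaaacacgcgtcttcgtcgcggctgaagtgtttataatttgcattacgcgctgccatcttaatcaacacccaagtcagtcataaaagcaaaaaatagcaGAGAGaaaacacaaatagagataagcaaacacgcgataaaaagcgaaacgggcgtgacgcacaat
cry, promoter summit, chr3R:19211778-19211978, plus strand: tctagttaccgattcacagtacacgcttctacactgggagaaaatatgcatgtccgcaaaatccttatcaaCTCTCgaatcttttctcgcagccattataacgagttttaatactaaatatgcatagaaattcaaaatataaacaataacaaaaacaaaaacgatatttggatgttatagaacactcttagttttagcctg
The strongest windows of cbt, vri and Pdp1 and the one at the vri promoter P2 had none of the 8 motifs. No window shown overlapped an annotated exon, which was in part by choice. The E-box window was picked among those with no exon in reach, and the strongest cyc summit, in the 5′ UTR of Fibp, was left out. GC content was 41.3% at the strongest cbt summit, 30.8% at the strongest vri summit and 23.9% at the strongest Pdp1 summit. Over the 31 summits the median was 31.3%, with a range from 19.9% to 54.2%, and over all IDR summits it was 34.3%.

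**Figure D1:**
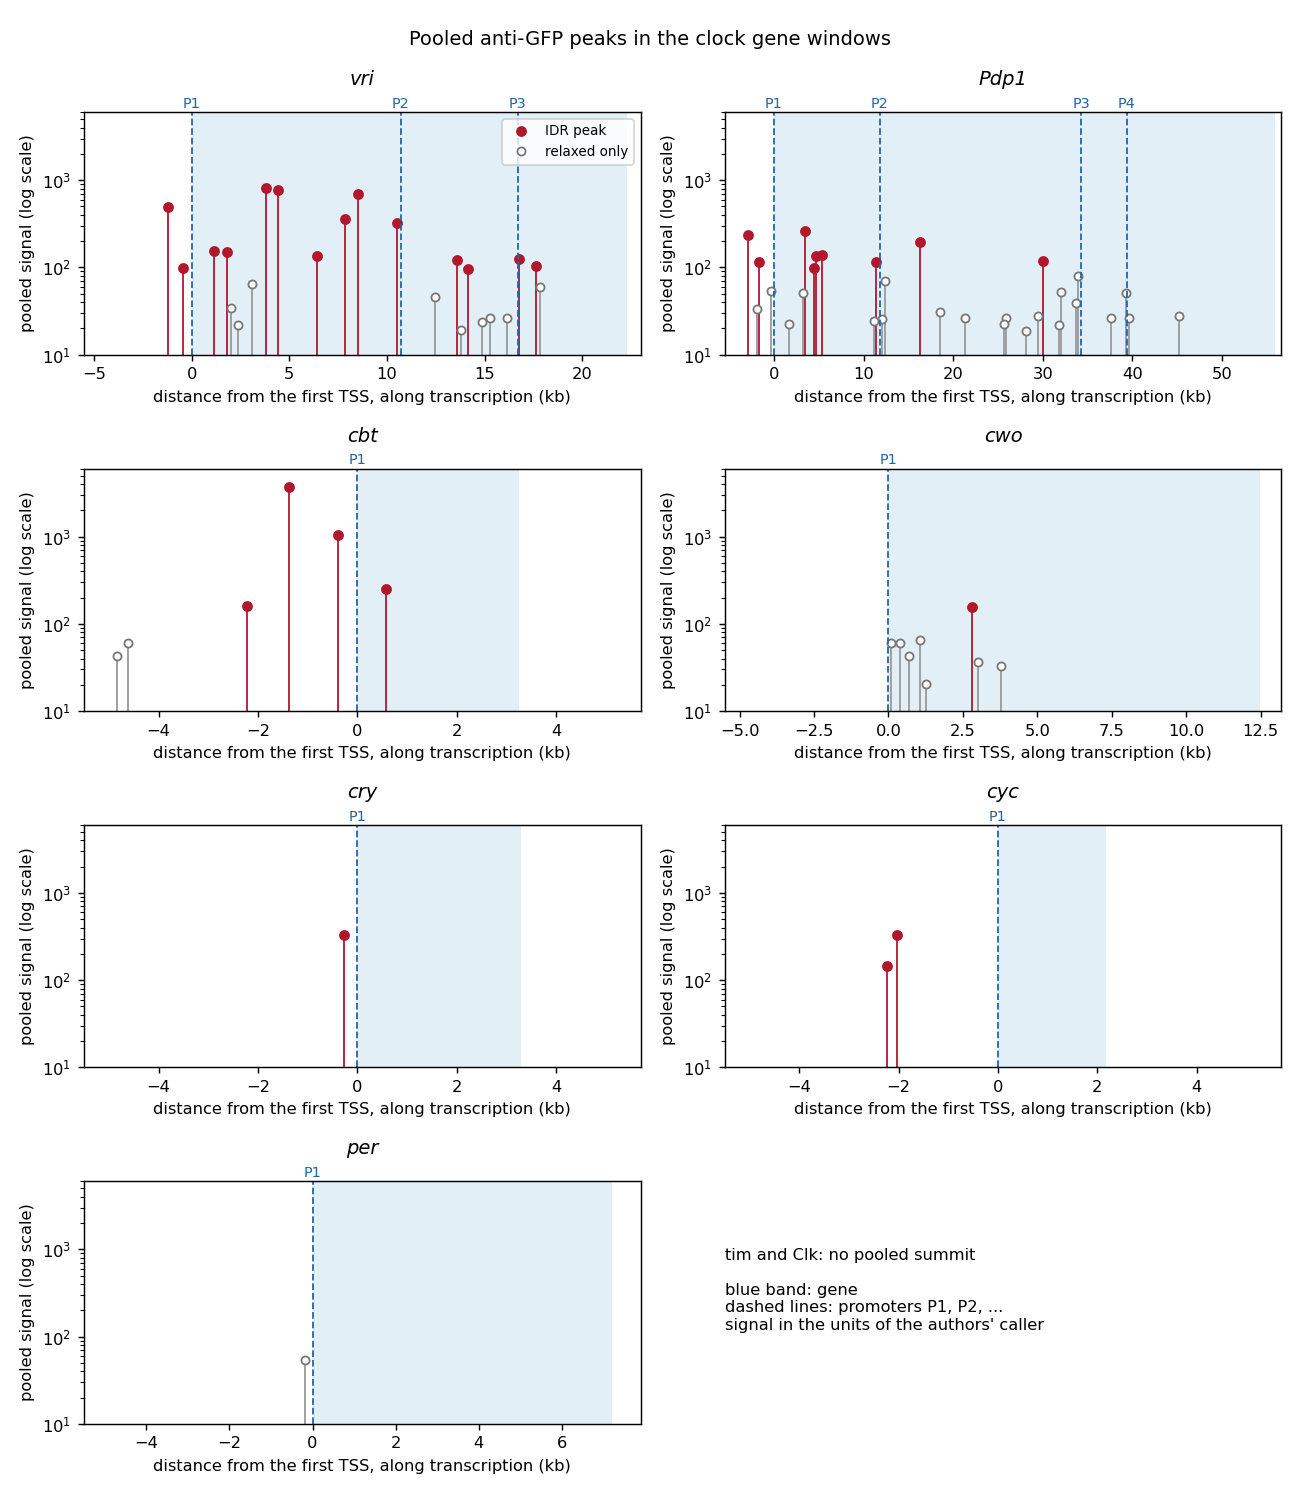
Pooled signal (log scale, in the units of the authors' caller) against distance from the first TSS along transcription, in kb, for the 7 clock genes with a pooled summit; filled points are IDR peaks, open points are relaxed peaks outside the IDR set, and dashed lines are promoters. The vri summits fill the stretch from P1 to P3, those of cbt sit around and before its promoter, and per has a single weak relaxed summit.

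Occupied promoters were first counted for all members. Of the 9 members, 4 had an IDR summit no more than 500 bp from a TSS, vri, Pdp1, cry and cbt, where 24.3% of all protein-coding genes had one. With a limit of 200 bp the count fell to 1, vri, and the share of all protein-coding genes was not counted at that limit. Inside the whole gene or within 5000 bp of a TSS the count was 6 of 9, against a background of 50.9%. With the relaxed pooled list it was 6 of 9 at promoters and 7 of 9 in the windows, against 42.5% and 71.6%. Of the 17 TSSs of the 9 genes, 6 had an IDR summit within 500 bp, and 3 did when replicate 2 was left out in the same way. The same share over all annotated TSSs was not counted. Among each replicate's own strongest 8424 peaks, 5, 5 and 4 of the 9 members had a promoter summit in replicates 1, 2 and 3, against 22%, 27.4% and 25.5% of protein-coding genes. The shares over all protein-coding genes were not matched for TSSs per gene, which came to 4 at Pdp1 and 3 at vri. They were not matched for window length either, which was 60.9 kb at Pdp1. A set of 9 genes chosen with results in view carries no test, so these shares are descriptions.

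Among the activators, Clk (FBgn0023076; 3L, 7763233 to 7775603, minus strand), which encodes the CLK member of the pair, was the emptiest locus. Its 2 promoters and its introns had no summit in the pooled list or in the list of any replicate. Only when the flank was widened to 10000 bp did 2 IDR summits enter its window. An empty window was not rare, as 34.8% of the 865 protein-coding genes with a window within 20% of the length of that of Clk had no IDR summit.

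For cyc (FBgn0023094; 3L, 19813770 to 19815938, minus strand), which encodes the CLK partner, both IDR summits lay upstream in the promoters of other genes. The stronger (19817776 to 19818009, summit 19817965) was 2027 bp upstream of cyc and 2 bp inside Fibp, with a pooled signal of 333 at rank 1922. This peak ranked 3532 in replicate 2 and 1777 in replicate 3, with no matching peak in replicate 1. The other (19818058 to 19818190) was 8 bp upstream of Deaf1, which encodes a DNA-binding factor, with a signal of 146. It ranked 1969, 7877 and 8693 in the 3 replicates, in order. Leaving out replicate 2 or replicate 3 left this 1 of the 2, in the former case only through an overlap with the Fibp peak of replicate 3.

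At the cyc promoter itself the replicates differed from the pooled list. Replicate 2 listed summits 307 and 95 bp downstream of the cyc TSS, with signals of 67.3 and 33.5 and ranks of 4327 and 10033. Replicate 3 listed 1 summit 150 bp downstream, with a signal of 45.95 and rank 7704. Neither replicate 1 nor the pooled list had a summit within 500 bp of the TSS. Peaks that overlapped in replicates 2 and 3 at the cyc promoter were thus missing from the pooled list.

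The repressors per and tim were close to empty. At per (FBgn0003068; X, 2685580 to 2692780, plus strand), the gene whose mutants founded the study of the clock, the sole pooled summit lay 192 bp upstream of its only TSS (2685173 to 2685602). It had a signal of 53.7, rank 13622 and a -log10 q-value of 1.76, outside the IDR set. All 3 replicates listed a summit there, 363, 252 and 172 bp upstream of the TSS in replicates 1, 2 and 3. Signals were 11.8, 20.98 and 26.7, at ranks 13982, 15846 and 12898. These ranks all lie beyond the strongest 8424 peaks of each list. For tim (FBgn0014396; 2L, 3493986 to 3508119, minus strand), whose protein partners PER, replicates 2 and 3 and the pool listed no summit at all. Replicate 1 listed 4, the best at rank 14068 with a signal of 11.7 in a late intron, and 1 of them 245 bp downstream of P3, the start of 6 of its 10 transcripts, at rank 25110. Of genes with a like window, 52.3% for per and 34.4% for tim had no IDR summit either.

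The photoreceptor gene cry (FBgn0025680; 3R, 19212154 to 19215442, plus strand) had a single, steady promoter peak. Its summit lay 276 bp upstream of the only TSS (19211761 to 19212098, summit 19211878), outside any gene, with a pooled signal of 326 and rank 1972. Signals were 89.3, 114 and 123 in replicates 1, 2 and 3, and the ranks of 1655, 2018 and 2330 stayed close together. All 3 replicates placed the summit between 277 and 222 bp upstream of the TSS.

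The richest locus was vri (FBgn0016076; 2L, 5288944 to 5311223, plus strand), which encodes the bZIP repressor of Clk. Its 14 IDR summits in a window of 27.3 kb come to 5.13 per 10 kb. Among the 509 protein-coding genes with a window within 20% of that length the median was 2 summits, and vri was the only one with 14 or more (0.196% of them, itself included). Of all 13968 protein-coding genes, 27 had more. The vri gene has 3 promoters, P1 for transcript RE, P2 for RC and P3 for RA, RD and RF, and each had an IDR summit in reach of 500 bp. The strongest of these was at P2, 189 bp upstream of the RC start (5299296 to 5299594), with a pooled signal of 319 and rank 2028. Signals there were 58.2, 144 and 124 and ranks 2909, 1413 and 2292 in replicates 1, 2 and 3. The P3 summit, 58 bp downstream of the start in a 5′ UTR, had a signal of 124. It ranked 4057 in replicate 2 and 8364 in replicate 3, and replicate 1 had no match. The P1 summit, 458 bp upstream and inside the non-coding RNA gene lncRNA:CR44743, had a signal of 98.2 and rank 8075, near the end of the IDR set.

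Higher signal lay between the vri promoters. The stretch from P1 to P2, which is intronic only for transcript RE, held 8 IDR summits, and the strongest of the gene were a pair in it, 3805 and 4442 bp past P1. The first (5292562 to 5292988) had a pooled signal of 816, rank 398 and signals of 203, 271 and 377 in replicates 1, 2 and 3. The next (5293144 to 5293560) had a pooled signal of 768, rank 453 and replicate signals of 184, 316 and 314. Their replicate ranks ran from 323 to 451 and from 317 to 482, so the 3 libraries placed both among their strongest 500 peaks. A further summit 2176 bp before P2 (5297266 to 5297655) had a pooled signal of 700.4. Its ranks in the replicates were 570, 447 and 624. It lay 457 bp downstream of the TSS of a non-coding RNA gene, lncRNA:CR45730. Before the gene, 1231 bp upstream of P1, a summit inside lncRNA:CR44743 and 135 bp upstream of the TSS of lncRNA:CR44742 had a signal of 489.9. It ranked 1444, 1004 and 973. Between P2 and P3 there were 2 IDR summits with signals of 123 and 95.1, and beyond the summit at P3 a single one with 105. The vri count fell to 9 without replicate 1, to 7 without replicate 2 and to 11 without replicate 3.

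Pdp1 (FBgn0016694; 3L, 7811458 to 7867369, minus strand), the activator of the same loop, had many weak summits over a long gene. Its window of 60.9 kb held 9 IDR and 21 relaxed-only summits. The median of the 221 genes with a like window was 3 IDR summits, and 12.7% of them had 9 or more. Of its 4 promoters only P2, the start of 7 of its 13 transcripts, had one in the IDR set at that distance. That summit, 463 bp upstream (7855796 to 7856225), had a signal of 115. Its ranks of 3930, 6689 and 13075 put it beyond the strongest 8424 peaks in replicate 3. P1, P3 and P4 had relaxed summits with signals of 53.9, 80.2 and 50.5 and ranks of 13591, 9771 and 14281.

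The first intron of the Pdp1 transcripts RF and RO, which start at P1, held 7 of its 9 IDR summits. Of these, 5 were in the first intron of RF and RO alone, and 2 were also in the first intron of RB, RG, RM and RN. The strongest of the gene was in it, 3461 bp past P1 (7863745 to 7863965), with a pooled signal of 264 and rank 2623. Signals were 52.1, 97.4 and 123 and ranks 3310, 2536 and 2331 in replicates 1, 2 and 3, so the libraries placed it alike. A summit shared with those transcripts, 4426 bp past P2 (7851003 to 7851155), had a signal of 195 and ranked 3526, 4610 and 3985. Upstream of P1 were 2 more, 1 of them 22 bp upstream of the TSS of CG32365 (signal 115) and the other in an intron of that gene (signal 233). Leaving out replicate 2 or replicate 3 left Pdp1 with 4 IDR summits.

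**Figure D2:**
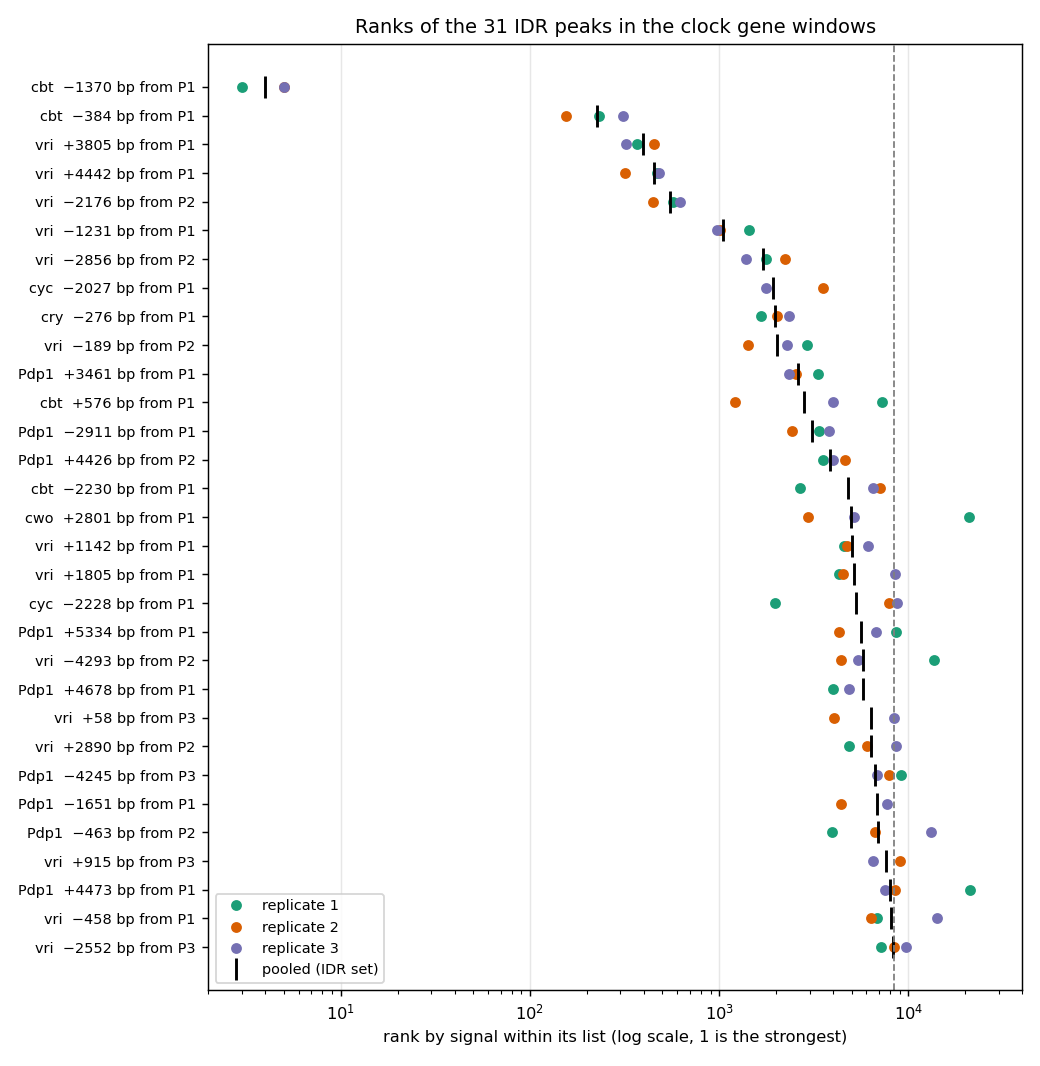
Rank by signal (log scale, 1 is the strongest) of each of the 31 IDR peaks in the clock gene windows, named by gene and by the distance of the summit from the closest own TSS, in the pooled set (bar) and in each replicate (points; a missing point means no matching peak, and overlapping points hide each other, as replicates 2 and 3 do at the top); the dashed line is rank 8424. Replicate ranks stay close to the pooled rank for the cbt and vri peaks at the top and spread apart further down.

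In cwo (FBgn0259938; 3R, 10388258 to 10400752, plus strand), which encodes the E-box repressor, the only promoter had no summit of the IDR set. Relaxed summits 84 and 394 bp past the TSS, in the 5′ UTR, had signals of 59.6 and 60.8 and ranks of 12552 and 12353. The IDR summit was in the first intron, 2801 bp past the TSS (10390844 to 10391273), with a pooled signal of 155 and rank 4951. Replicates 2 and 3 gave it signals of 88.2 and 65.7 and ranks of 2932 and 5130, whereas replicate 1 gave 8.32 and rank 20774. It thus drops out of any set that asks for the strongest peaks of replicate 1. In all, 7 relaxed-only summits of the pooled list lay between 84 and 3782 bp past the TSS.

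The replicate lists held cwo summits that the pooled list did not rank as high or did not hold. Further into the first intron, each replicate listed a summit 5646, 5628 and 5637 bp past the TSS in replicates 1, 2 and 3, where the pooled list had none. Signals there were 29.6, 34.7 and 56.97 and ranks 6081, 9648 and 6053, so replicates 1 and 3 placed it among their strongest 8424 peaks and replicate 2 did not. At the cwo promoter, replicate 1 listed a summit 362 bp past the TSS with a signal of 26.3 and rank 6763, while the best promoter ranks in replicates 2 and 3 were 12252 and 11325.

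The strongest clock gene signal lay at cbt (FBgn0043364; 2L, 476446 to 479688, minus strand), which encodes the zinc-finger factor Cabut and lies inside a large intron of ush, a gene for a GATA cofactor. Its strongest summit, 1370 bp upstream of the only cbt TSS (480555 to 481339, summit 481058), had a pooled signal of 3682 and rank 4 of 8424. Signals were 943, 1192 and 1488 and ranks 3, 5 and 5 in replicates 1, 2 and 3. A summit 384 bp upstream of the TSS (479857 to 480270) was the strongest at any clock gene promoter, with a pooled signal of 1039 and rank 226. Its replicate signals were 251, 413 and 382 and its ranks 231, 156 and 312. The other 2 were weaker and less even between libraries. The summit 576 bp past the TSS (479051 to 479223), in a 5′ UTR, had a signal of 251 and ranked 7203, 1208 and 3998. The one 2230 bp upstream (481859 to 482027) had a signal of 160 and ranked 2686, 7054 and 6478. Of 11140 genes with a window like that of cbt, 3.12% had 4 or more IDR summits. Since cbt and ush share this DNA, the peak lists do not say which of the genes a summit belongs to. A flank of 10000 bp around the cbt TSS held 10 IDR summits.

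**Figure D3:**
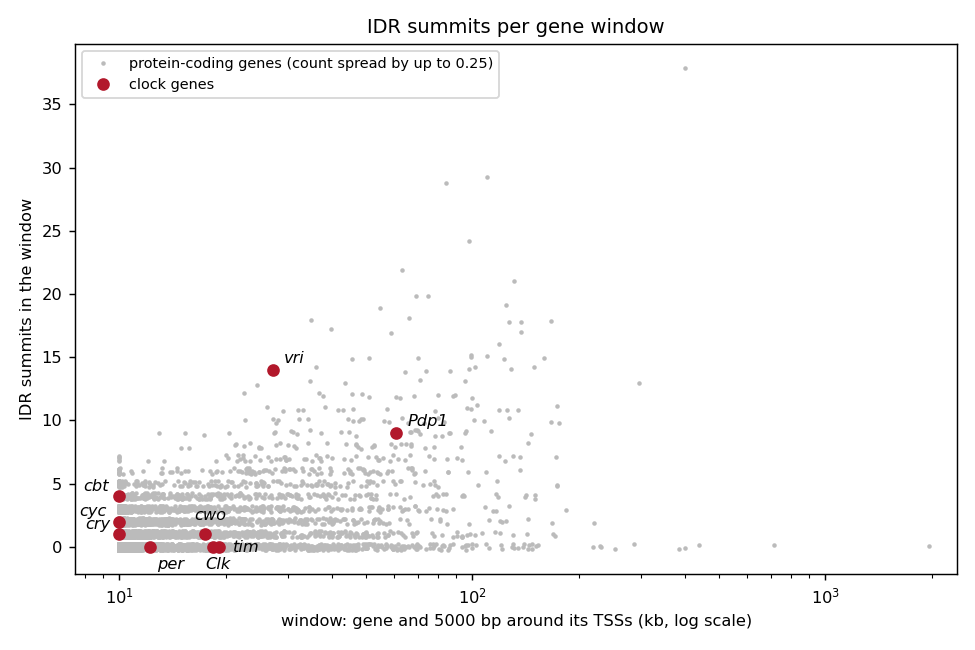
IDR summits in each gene window against the length of the window (kb, log scale) for all protein-coding genes (grey, counts spread by up to 0.25) and the 9 clock genes (red). With 14 summits vri stands above genes of a like window length, while per, tim and Clk are at 0.

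The places of the 31 summits were counted, and the same counts were not made over all IDR peaks. Own introns held 19 of them, all at vri, Pdp1 and cwo. Each was in the first intron of 1 or more transcripts, the lowest intron number over transcripts being the one taken. Another 2 were in 5′ UTRs and 10 were outside the member gene. No more than 500 bp from the TSS of any gene lay 11, of which 6 were at a member's own TSS, and the 11 came to 6 without replicate 2. For 27 of the 31 the closest coding TSS was that of the clock gene, which the choice of windows around its TSSs favours. Of the 31, 5 ranked within the strongest 1000 of the 8424 IDR peaks, all of them at cbt and vri. The weaker 4212 of those 8424 held 17 of the 31 (54.8%). The median signal of the 31 was 155, against 179.8 for all IDR peaks.

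Replicate support was checked against the strongest 8424 peaks of each library, with an overlap of at least 50% of either peak. By this overlap all 3 held 16 of the 31 peaks (51.6%), against 66% of all IDR peaks, and 15 when summits had to lie within 100 bp of each other. The 16 include the Deaf1 peak, whose own summit in replicate 3 ranked 8693 and which counts there through the overlapping Fibp peak at rank 1777. Replicate 1 held 22 (71%), replicate 2 held 28 (90.3%) and replicate 3 held 26 (83.9%), where the shares over all IDR peaks were 82.1%, 84% and 89.3%. Over the full lists of 30000 peaks, 26 of the 31 had a match in every library. The IDR set was made from these lists, so support is not independent evidence, and the differences from all IDR peaks were not tested.

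The E-box, CACGTG, to which CLK and CYC bind, was searched in the windows, where it reads the same on both strands. The 9 windows held 53 in 185.4 kb, or 2.86 per 10 kb, against 1.23 per 10 kb in the genome. They were densest in cwo, with 15, in per, with 9, and in cbt, with 5, at 8.57, 7.38 and 5 per 10 kb. The IDR summit closest to any of the 9 at per was 13503 bp away, and none of the 15 in cwo was closer than 242 bp. Of the 53 in all, 2 were within 100 bp of an IDR summit, both at cbt, 85 bp from the summit in its 5′ UTR and 75 bp from the one 2230 bp upstream. Counted by peaks, 2 of 31 (6.45%) had an E-box within 100 bp, against 1.63% of all IDR peaks, and 8 of 31 (25.8%) within 250 bp, against 5.94%. Those 8 were 4 at cbt, 3 at Pdp1 and 1 at cwo. All 14 at vri had none, though 1 E-box lay 257 bp from a vri summit, just past that limit. The per and cwo windows, dense in E-boxes, held 0 and 1 IDR summits. The tim, Clk, cyc and cry windows, which also held few or none, had 1.05, 1.09, 2 and 1 E-boxes per 10 kb. The vri and Pdp1 windows, which held the most summits, had 1.47 and 2.13 per 10 kb. No difference in shares was tested.

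The other 7 motifs were counted in the same way. GAGAG, the core of GAGA elements, was within 100 bp of 9 of 31 summits (29%), against 23% of all IDR summits. CACGTT, a variant E-box, was near 3 (9.68%, against 5.37%). TTATGTAA, the core of the box that VRI and PDP1 bind, was near none of the 31 (2.08% of all IDR summits). TATCGATA, the element of the factor DREF, was near 1 (3.23%, against 2.64%), the summit at Deaf1. AGGTCA, a nuclear receptor core site, was near 1 (3.23%, against 3.76%), and GGTCACACT, which the factor M1BP binds, and CAGGTA, which Zelda binds, were near none (1.13% and 3.63% of all IDR summits). All were searched on both strands, and a match is only a run of letters.

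Beyond the core, 31 other genes of clock control were counted by role. Of these, 15 of 31 (48.4%) had an IDR summit at a promoter, that is within 500 bp of a start, where all protein-coding genes gave 24.3%. In the window it was 21 of 31 (67.7%), against 50.9%. Neither share was matched for the number of TSSs per gene, which was 11 at sgg, or for window length. The count at promoters was 9 without replicate 3. The group of kinases and phosphatases that act on PER, TIM or CLK, counted with their subunits and partners, had a promoter summit in 7 of 9 cases. The strongest was at sgg, the GSK-3 kinase that acts on TIM, 201 bp upstream of a TSS (X, 2646129 to 2646791), with a pooled signal of 1157. It ranked 214, 148 and 181 in the replicates. The phosphatase PP2A was represented by its catalytic subunit mts (signal 350.3) and its regulatory subunits wdb (465) and tws (158). The kinase genes dco, which encodes the PER kinase Doubletime, CkIIbeta and nmo had signals of 136, 143 and 149.8. The CkIIbeta peak was matched in replicate 3 alone. The dco peak ranked 20670 in replicate 2, and the tws peak had no match in replicate 1.

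Genes of protein breakdown had a promoter summit in 2 of 4 cases, at slmb, which marks PER for destruction (signal 144), and ctrip, a ubiquitin ligase gene (135). Neither peak had a match in replicate 1, and that of slmb ranked 13404 in replicate 2. Genes of RNA and translation had 2 of 4, at Atx2, a partner in PER translation (149), and nonA, an RNA-binding protein gene (106). The nonA peak had no match in replicate 1, and the Atx2 peak ranked 10372 in replicate 2. Transcription factors and cofactors had 4 of 7, led by Eip75B, an ecdysone-induced nuclear receptor (957, ranks 409, 280 and 233). The others were nej, the coactivator CBP (287), kay, the fly Fos (185), and Mef2 (129, at rank 8857 in replicate 1). Of the 7 neuropeptide and output genes, which include Pdf, its receptor gene Pdfr and to, none had a promoter summit in the IDR set, and 1 had a summit in its window. The lists are short and no difference between roles was tested.

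**Figure D4:**
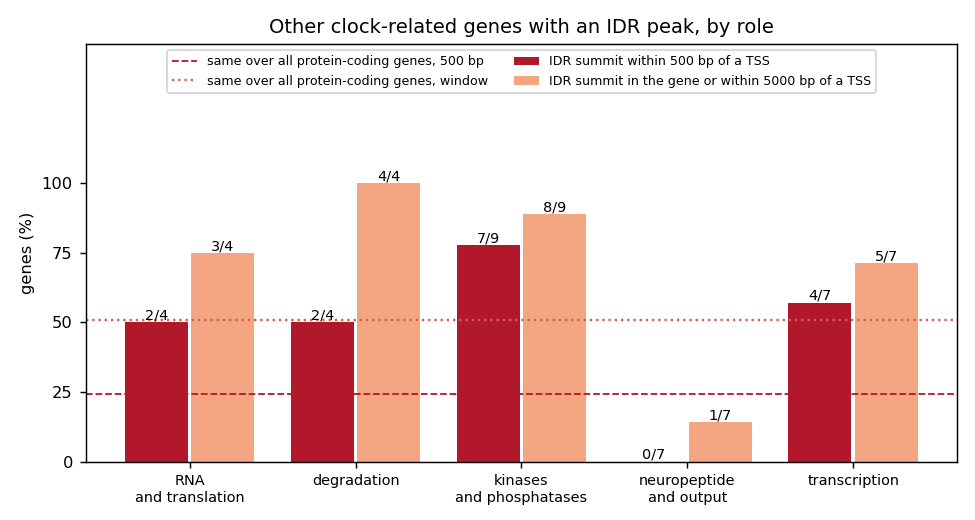
Share of other clock-related genes (%, with counts above the bars) that have an IDR summit up to 500 bp from a TSS (dark) or in the gene or within 5000 bp of a TSS (light), by role; lines give the same shares over all protein-coding genes, 24.3% and 50.9%. The group of kinases and phosphatases, with their subunits and partners, had 7 of 9 at promoters and the neuropeptide and output genes 0 of 7.

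Genes whose promoter peaks ranked most like the strongest clock gene peaks were looked for by the distance of log10 ranks over the 3 replicates, among 2769 protein-coding genes with a promoter IDR peak matched in every replicate. Closest to the cbt peak were PNPase, an RNA exonuclease gene (ranks 5, 6 and 4, distance 0.255), and Chro, a chromosomal protein gene (ranks 4, 9 and 10, distance 0.414). Closest to the strongest vri peak were E(spl)m3-HLH, a Notch target (ranks 383, 483 and 321, distance 0.035), and Sqor (ranks 341, 505 and 348, distance 0.067). The strongest peak in the cyc window, the next in order, had no match in replicate 1 and could not be compared.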

How the data were processed

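Anti-GFP ChIP-seq peaks from 3 replicates of 1 group were used. Per the file records that accompany the labels, the authors called relaxed peaks on dm6 alignments of each replicate and of all replicates pooled, with a control alignment, and derived the optimal IDR set from those lists (aligner, caller and IDR cutoff not given in the sources used here). Signal is the score the authors deposited for each peak, unscaled between lists, and served to rank peaks within a list. The deposited -log10 q-value, equal for all IDR peaks, was not used as a filter. The p and score columns hold constants, so no ranking by them could be made. The authors' dm3 lists (5) were not used here. No depth or interval can be given.

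TSSs, exons and introns came from Ensembl release 115 on the same assembly, whose chromosomes hold all dm6 peaks, without transposable elements. All 9 members and 31 other clock-related genes matched, NLF-1 by its synonym as Mid1. TSSs within 200 bp would count as 1 promoter, which joined none. Positions are 1-based. Peaks matched with an overlap of 50% of either, taking the closest summit within the list searched (the whole list for ranks, the strongest 8424 for support). Genes named are the members, genes at or around their IDR summits, other clock-related genes with a promoter summit, and genes alike in rank. Members and lists were chosen with earlier results of these data known. Steps were tested on planted peaks. Python 3.11.15, numpy 2.4.6, pandas 2.3.3 and matplotlib 3.10.9 were used.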

Additional observations from a re-analysis of the deposited data

How the results depend on the processing

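With a TSS window of 200 bp in place of 500 bp, the members with a promoter IDR summit went from 4 to 1 (vri), the member TSSs with one from 6 to 2, and the summits near a TSS of any gene from 11 to 7. Among the stronger 4212 IDR peaks, 14 summits lay in the member windows, and 3 member TSSs and 6 of the other clock-related genes had a promoter summit, and among peaks in the strongest 8424 of every replicate 3 and 9, with 16 summits in the windows. With the whole pooled relaxed list, 71 summits lay in the windows and 11 member TSSs had one. In the whole relaxed list of each replicate, 26 of the 31 peaks were matched 3 times. An E-box was within 50 bp of 0 and within 250 bp of 8 of the 31 summits. Each replicate was left out in turn by keeping the IDR peaks that both others held in their strongest 8424. This gave 17 to 23 summits in the windows, 3 to 5 member TSSs, 9 to 12 other clock-related genes and 6 to 9 summits near any TSS. Of 81 values for single members, 58 stayed within 1.5 times and 23 did not, including the count of cwo, which fell to 0 without replicate 2 or 3. Both of those sets ask for a match in the strongest 8424 of replicate 1, where the cwo peak ranked 20774. The cause of the other shifts was not tested. Ranking by the p or score column could not be run. No paired analysis was possible because there is 1 group. Depth is unknown, so an empty locus means only that no peak reached the last rank of a list.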
